A study of Mus musculus with 19 samples.

Results

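Simple epithelial keratins were followed as 4 genes, Krt7, Krt8, Krt18 and Krt19, which were found by symbol among the 54352 symbols of each of both count tables. Keratins form the intermediate filaments of epithelial cells. A filament assembles from obligate heterodimers of a type II keratin (here Krt8 and Krt7) and a type I keratin (here Krt18 and Krt19). The Krt8 and Krt18 pair is the first keratin pair of the mouse embryo and marks the trophectoderm, the outer epithelium of the blastocyst, in which Krt7 and Krt19 are made as well.

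RNA was measured in 19 libraries from TT2, an established mouse embryonic stem cell line kept on inactivated mouse embryonic fibroblasts (feeder cells). Blastoids, which are stem cell aggregates grown in 3D microwells to resemble a blastocyst, gave 3 libraries on each of days 1 to 5. Their labels list pladienolide B (PlaB) for 6 h as well, and the series text calls them TTLC-blastoids. In 2D culture, 2 libraries came from cells given 20 nM PlaB, which inhibits the spliceosome by binding its SF3B complex, for 6 h, and 2 libraries from untreated control cells, all named as taken at 54 h. All groups share the cell line, and nothing in the labels says whether replicates were separate cultures, so each p-value reflects library-to-library spread alone, and that spread may be technical. No untreated blastoid was among the groups, so day of culture and any lasting effect of PlaB cannot be told apart in blastoids.

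The libraries held 3684787 to 7607021 counts in blastoids and 2515381 to 4118725 counts in 2D culture. Naive pluripotency genes were present in 2D control cells, with Nanog at 192 ± 11.1 CPM and Tdgf1 at 905 ± 16 CPM (mean ± SD, n = 2), but Pou5f1 stood at only 0.523 ± 0.0211 CPM there. Levels are given as CPM, counts scaled by TMM to a common library size over all libraries. Cdx2, a defining factor of the trophectoderm, had 0 counts in both 2D groups and on day 2.

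The keratin genes lie in 3 places of the mouse genome (GRCm38, GENCODE M21). Krt8 (ENSMUSG00000049382.10, chromosome 15, 101996698 to 102004482, minus strand, 9 exons) and Krt18 (ENSMUSG00000023043.7, chromosome 15, 102028180 to 102032027, plus strand, 7 exons) are 23697 bases apart and point away from each other. Krt7 (ENSMUSG00000023039.17, chromosome 15, 101411043 to 101430313, plus strand, 9 exons) lies 566384 bases from Krt8. Krt19 (ENSMUSG00000020911.14, chromosome 11, 100140810 to 100148665, minus strand, 6 exons) is on another chromosome. Exons of Krt7 share 77 bases with the antisense gene Gm671, and exons of Krt8 share 101 bases with the noncoding gene Gm36026. Neither Gm671 nor Gm36026 had more than 3 counts in any library. Krt8 also has a processed pseudogene, Krt8-ps, to which reads of Krt8 could have been assigned. Krt8-ps summed to 49, 11, 5, 71 and 47 counts on days 1 to 5, to 3 counts in PlaB-treated cells and to 0 counts in control cells, against 109 or more counts of Krt8 in each of these groups.

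Promoters are shown because the genes moved together over the days. Each sequence runs from 250 bases before to 50 bases after the RefSeq start of the gene (GRCm38.p6), on the gene's own strand, and was available for 3 of the 4 genes. The windows are chr15:101412153-101412452 (plus strand) for Krt7, chr15:102004293-102004592 (minus strand) for Krt8 and chr15:102027966-102028265 (plus strand) for Krt18. Capitals mark matches, on either strand, to any of 6 searched motifs. The promoter element known as the TATA box was searched as TATAAA, the box bound by Sp1-type factors as GGGCGG, and the motif of AP-2 factors such as Tfap2c as GCCNNNGGC. Those of the other factor families were searched as AGATAA for GATA factors, as GGAATG for TEAD factors, and as TGANTCA for AP-1 factors.
Krt7: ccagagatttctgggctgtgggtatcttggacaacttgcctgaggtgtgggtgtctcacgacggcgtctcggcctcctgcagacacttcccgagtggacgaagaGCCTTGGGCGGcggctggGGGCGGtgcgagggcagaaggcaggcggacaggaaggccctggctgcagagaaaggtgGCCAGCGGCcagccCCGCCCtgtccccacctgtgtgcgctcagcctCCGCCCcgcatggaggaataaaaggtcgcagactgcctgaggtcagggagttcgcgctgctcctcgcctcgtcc
Krt8: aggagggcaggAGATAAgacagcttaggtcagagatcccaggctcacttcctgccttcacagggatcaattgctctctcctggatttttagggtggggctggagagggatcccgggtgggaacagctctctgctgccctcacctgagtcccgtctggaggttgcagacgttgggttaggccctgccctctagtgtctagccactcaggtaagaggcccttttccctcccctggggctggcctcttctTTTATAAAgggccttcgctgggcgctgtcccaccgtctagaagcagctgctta
Krt18: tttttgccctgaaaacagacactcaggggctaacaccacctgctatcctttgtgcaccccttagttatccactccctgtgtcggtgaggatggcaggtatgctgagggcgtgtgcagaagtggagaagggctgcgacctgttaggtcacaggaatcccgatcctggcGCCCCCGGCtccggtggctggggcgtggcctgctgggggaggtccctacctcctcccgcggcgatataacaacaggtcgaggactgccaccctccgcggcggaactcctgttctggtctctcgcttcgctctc
Krt7 held 4 matches to the Sp1-type box (GC boxes), whose left ends lie 141, 128, 56 and 24 bases before the start, and 2 AP-2 matches at 146 and 70 bases, the first of which overlaps a GC box. Krt8 held 2 overlapping TATA matches, 1 on each strand, at 3 and 1 bases before the start, and a GATA match at 239 bases. Krt18 held 1 AP-2 match at 83 bases. The TEAD and AP-1 letters were in none of these windows. Among 32851 RefSeq promoters of this length, 13.6% held the TATA letters, 35.7% the GC box, 16.6% the AP-2 letters, 11.2% the GATA letters, 14.7% the TEAD letters and 7.81% the AP-1 letters. The GC content of the windows was 66.3% for Krt7, 58.0% for Krt8 and 61.3% for Krt18, against a median of 52.7% over all promoters.

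In blastoids all 4 keratins followed one course. They were lower on day 2 than on day 1, lowest on day 3, and between 15.8-fold and 43-fold higher on day 4 than on day 3. Krt8, the type II partner of Krt18, stood at 101, 111 and 56.6 CPM on day 1, at 17.5, 39.3 and 32.5 CPM on day 2, at 8.06, 12.6 and 10.8 CPM on day 3, at 228, 252 and 226 CPM on day 4, and at 309, 236 and 465 CPM on day 5 (replicates 1, 2 and 3). Every day 4 and day 5 library lay above every earlier one, though the share of all genes for which this held was not counted. Replicate 3 was the lowest of day 1 and the highest of day 5. Krt18, the most abundant of the 4, stood at 275, 276 and 197 CPM on day 1, at 52.4, 103 and 112 CPM on day 2, at 20.7, 30.2 and 23.2 CPM on day 3, at 546, 599 and 552 CPM on day 4, and at 739, 595 and 1290 CPM on day 5. As for Krt8, the day 4 libraries lay close together and those of day 5 lay far apart.

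Krt7, a type II keratin of simple and glandular epithelia, stood at 54.6, 48.7 and 15.6 CPM on day 1, at 6.45, 15.5 and 8.71 CPM on day 2, at 2.8, 4.34 and 4.43 CPM on day 3, at 60.4, 58.5 and 65.1 CPM on day 4, and at 61.1, 61.2 and 132 CPM on day 5. Its day 1 level was uneven, with replicate 3 far below the others and near the highest library of day 2. Krt19, the smallest keratin and a type I keratin of simple epithelia, stood at 7.07, 16.9 and 10.6 CPM on day 1, at 0.827, 3.46 and 2.51 CPM on day 2, at 0.658, 0.898 and 0.664 CPM on day 3, at 34.8, 27.7 and 37.4 CPM on day 4, and at 36.6, 36.5 and 56.9 CPM on day 5. On day 3 those values rest on 4, 6 and 3 counts, so the depth hardly resolves the Krt19 level there. Replicate 3 of day 5 was the highest library of that day for each of the 4 genes, and replicate 1 of day 2 the lowest of its day for each. In such bulk samples, fewer cells of a type and less RNA per cell cannot be told apart.

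**Figure D1:**
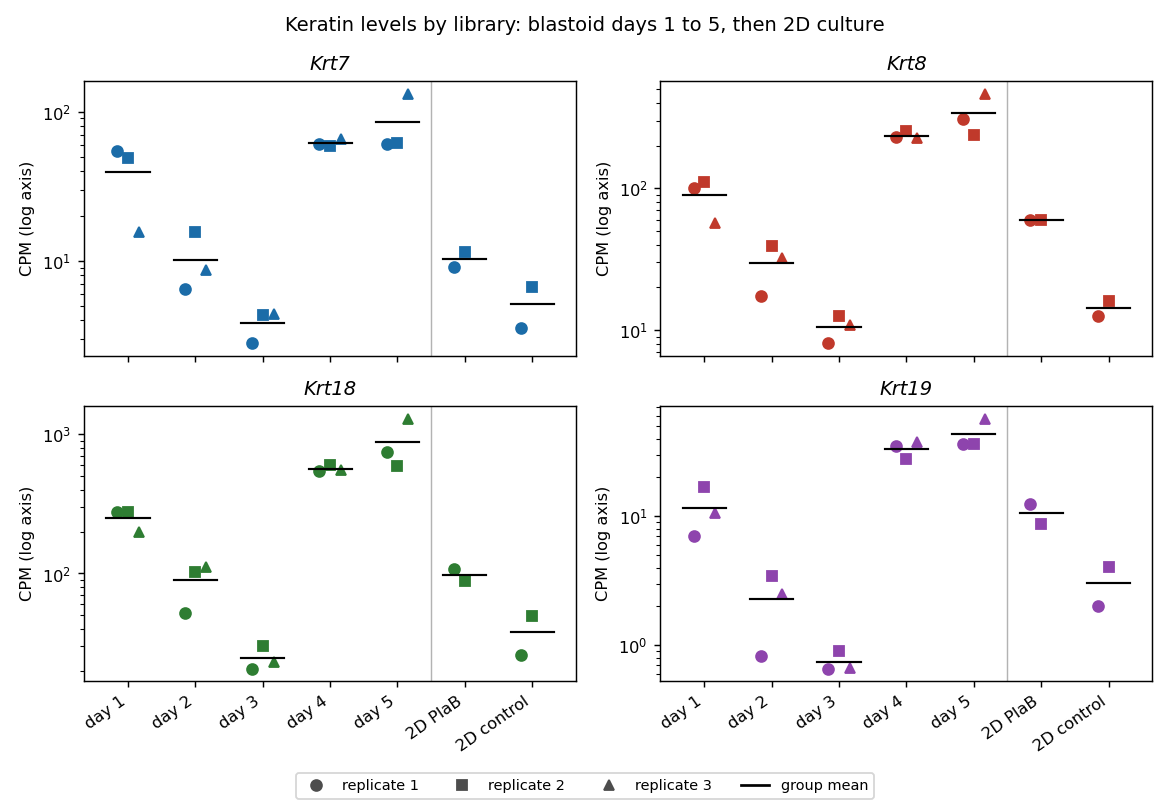
Level of each keratin gene in each library, in CPM on a log axis (symbols, replicates; black line, group mean), with blastoid days 1 to 5 left of 2D PlaB and 2D control. Each gene was lowest on day 3, and on days 4 and 5 all libraries of each gene lay above those of day 3. How often that held over all genes was not counted.

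From day 1 the keratins declined in steps. On day 2 against day 1, 4 of 4 keratins were lower in edgeR's quasi-likelihood test at an adjusted p under 0.05, against 5.27% of all 15121 genes tested. The log2 fold change was -1.56 ± 0.30 (SE) for Krt8, -1.92 ± 0.40 for Krt7, -1.46 ± 0.29 for Krt18 and -2.26 ± 0.38 for Krt19. On day 3 against day 2, 4 of 4 were lower again, against 13.5% of all genes. Krt18 fell by a further 1.83 ± 0.30 and Krt8 by 1.48 ± 0.32. The calls of Krt7 (-1.40 ± 0.45, adjusted p = 0.0283) and Krt19 (-1.58 ± 0.54, adjusted p = 0.0361) were fragile and ended when any of several single libraries was left out, for example with an adjusted p = 0.17 for Krt7 and 0.193 for Krt19 without day 2 replicate 2. Over both steps, on day 3 against day 1, 4 of 4 keratins were lower, against 23.8% of all genes. Krt8 fell to 10.5 ± 2.28 CPM on day 3, against 89.4 ± 28.8 CPM on day 1 (SD, n = 3 each), a log2 fold change of -3.04 ± 0.33 (adjusted p = 8.59e-07). Krt18 fell to 24.7 ± 4.93 CPM, against 249 ± 45.2 CPM on day 1 (-3.28 ± 0.31). Krt7 fell to 3.86 ± 0.917 CPM, against 39.6 ± 21 CPM (-3.31 ± 0.44), and Krt19 to 0.74 ± 0.137 CPM, against 11.5 ± 4.96 CPM (-3.84 ± 0.47). No library of day 3 overlapped one of day 1 for any of the 4, and the share of all genes without such overlap was not counted.

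Day 4 brought the steepest change. Krt19 rose to 33.3 ± 5.01 CPM on day 4, against 0.74 ± 0.137 CPM on day 3, a log2 fold change of 5.43 ± 0.45 (43-fold, adjusted p = 9.38e-08). Krt18 rose to 566 ± 29.2 CPM, against 24.7 ± 4.93 CPM on day 3 (4.50 ± 0.33, 22.7-fold, adjusted p = 4.17e-08). Krt8 rose to 235 ± 14.8 CPM, against 10.5 ± 2.28 CPM (4.47 ± 0.34, 22.2-fold, adjusted p = 4.22e-08). Krt7 rose to 61.3 ± 3.4 CPM, against 3.86 ± 0.917 CPM (3.98 ± 0.45, 15.8-fold, adjusted p = 4.1e-06). Thus 4 of 4 keratins were higher, against 15.6% of all genes. When the 15121 genes were ordered by this log2 fold change from the highest down, Krt19 came 17th, Krt18 33rd, Krt8 34th and Krt7 60th.

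Day 5 means lay above those of day 4, but the libraries of both days overlapped for each gene. Krt8 had 337 ± 117 CPM on day 5 and 235 ± 14.8 CPM on day 4, and Krt18 had 874 ± 367 CPM on day 5 and 566 ± 29.2 CPM on day 4 (SD, n = 3 each). None of 4 keratins passed the edgeR test, with log2 fold changes of 0.41 to 0.65, against 14.1% of all genes called higher. Krt18 came nearest (adjusted p = 0.0898) and was the only one of the 4 below 0.05 before adjustment, and neither DESeq2 nor limma-voom called any of the 4. Set against day 3, day 5 was higher for 4 of 4 keratins (19.2% of all genes), by 5.02 ± 0.35 for Krt8 and 5.84 ± 0.45 for Krt19 on the log2 scale.

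The later level also exceeded the starting one. On day 5 against day 1, 4 of 4 keratins were higher, against 25.5% of all genes. The log2 fold change was 1.98 ± 0.30 for Krt8 (adjusted p = 2.06e-05), 1.87 ± 0.29 for Krt18 (adjusted p = 2.97e-05) and 2.00 ± 0.33 for Krt19 (adjusted p = 5.47e-05). Krt7, at 84.7 ± 40.8 CPM on day 5 and 39.6 ± 21 CPM on day 1, had the smallest change of the 4 (1.16 ± 0.37, adjusted p = 0.0137). Its call rested on single libraries and ended without day 5 replicate 3 (0.71, adjusted p = 0.128) or without day 1 replicate 3 (0.72, adjusted p = 0.0869). Already on day 4, 3 of 4 keratins stood above day 1 (9.66% of all genes were called higher), with Krt19 at 1.59 ± 0.33, Krt8 at 1.43 ± 0.29 and Krt18 at 1.22 ± 0.29. Krt7 had a log2 fold change of 0.67 ± 0.37 on day 4 against day 1 and did not pass (adjusted p = 0.214).

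Other properties of the libraries differed between days as well. A GC index, the median log2 deviation of genes of at least 53.7% GC minus that of genes of at most 44.1% GC, had a group mean of 1.02, 0.19, -0.76, 0.52 and -0.30 on days 1 to 5. Over these days it was lowest on day 3, highest on day 1 and lower on day 5 than on day 4. The part of these GC differences in the keratin course was not tested. Of the keratin transcripts, Krt8 (57.1% GC), Krt18 (56.4%) and Krt19 (57.6%) belong to the GC-rich genes, and Krt7 (52.3%) lies just below their limit. With the GC trend of each library removed, the day 4 against day 3 log2 fold changes were 3.62 for Krt8, 3.60 for Krt7, 3.71 for Krt18 and 4.57 for Krt19, and all 4 were still called. Of all 15121 genes, 1420 were called higher in that form. Day 3 against day 1 then came to -1.86, -2.83, -2.22 and -2.69 for Krt8, Krt7, Krt18 and Krt19, again with 4 of 4 called, beside 2893 of 15121 genes called lower. For day 5 against day 4 the same correction turned Krt8 (1.07, adjusted p = 0.00338), Krt18 (1.13, adjusted p = 0.00219) and Krt19 (0.98, adjusted p = 0.0147) into calls, beside 2244 of 15121 genes called higher. Mitochondrial genes took 4.71 to 13.5% of the counts on day 3, against 2.6 to 4.92% on day 1, and the part of this in the keratin values was not tested. Leaving out any day 3 library kept all 4 keratins called on day 4 against day 3.

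**Figure D2:**
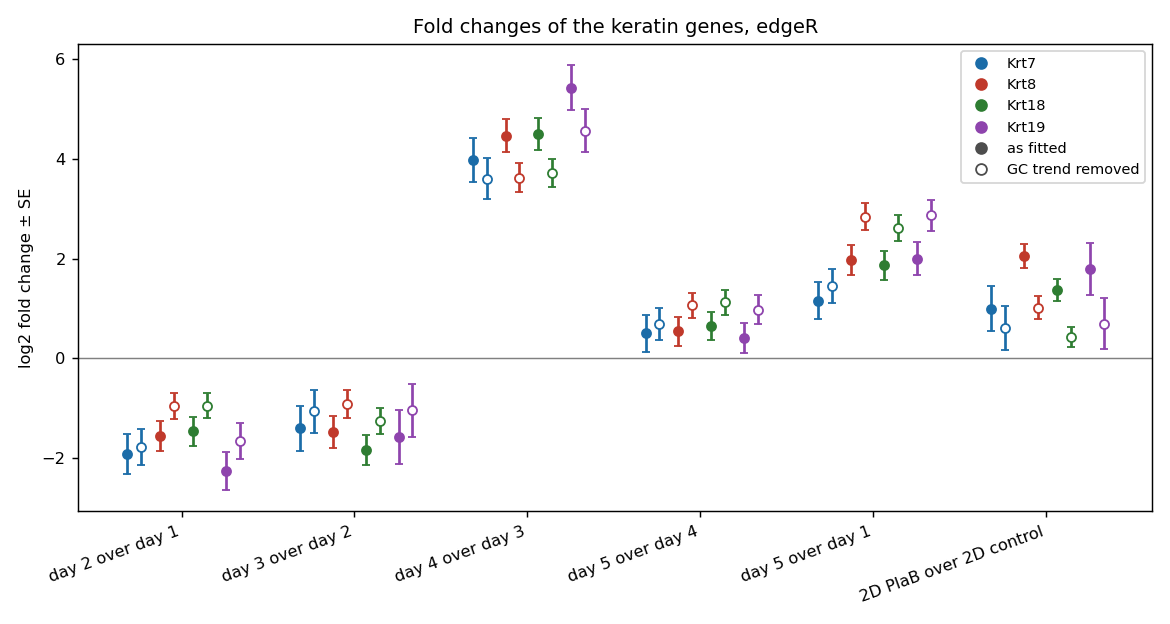
Log2 fold change ± SE of each keratin gene in 5 comparisons between blastoid days and in 2D PlaB over 2D control, as fitted (filled) and with the GC trend of each library removed (open). The day 4 over day 3 values lie between 3.60 and 5.43 in both forms, and the open symbols of 2D PlaB over 2D control lie between 0.42 and 1.02.

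In 2D culture PlaB was followed by higher levels of Krt8, Krt18 and Krt19. Krt8 had 59.9 and 59.5 CPM in PlaB-treated cells, against 12.5 and 16.1 CPM in control cells, a log2 fold change of 2.06 ± 0.24 (adjusted p = 5.18e-09). Krt18 had 107 and 88.2 CPM after PlaB, against 26.2 and 49.5 CPM in control (1.37 ± 0.22, adjusted p = 1e-05). Krt19 had 12.5 and 8.67 CPM after PlaB, against 2.03 and 4.04 CPM in control (1.79 ± 0.52, adjusted p = 0.00417), from 51 counts in all PlaB libraries and 23 counts in all control libraries. Krt7 had 9.05 and 11.4 CPM after PlaB, against 3.56 and 6.73 CPM in control, and did not pass (1.00 ± 0.46, adjusted p = 0.0691). For none of the 4 did the libraries of both groups overlap, but how often that held over all genes was not counted. Thus 3 of 4 keratins were higher, against 25.9% of the 11183 genes tested in 2D.

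Of these calls, that of Krt8 held with the GC trend removed (1.02 ± 0.23, adjusted p = 0.000563). Krt18 (0.42 ± 0.20, adjusted p = 0.0869) and Krt19 (0.70 ± 0.51, adjusted p = 0.271) then missed the threshold. The GC index averaged 0.18 in PlaB-treated cells and -1.07 in control cells. Mitochondrial genes took 9.14 to 9.38% of the counts in PlaB-treated cells and 5.74 to 6.18% in control cells, and the part of this difference in the keratin values was not tested. Krt19 also missed it without control replicate 1 (1.35, adjusted p = 0.0974), where the lone control library was assumed to vary like the other group. Markers of feeder fibroblasts moved in the same direction. After PlaB, 15 of 20 tested were higher and 1 lower, beside 25.9% and 25.8% of all genes. Their summed level was 5484 and 7182 CPM after PlaB, against 2821 and 3456 CPM in control. Their part in the keratin values was not tested. Markers of mesothelium, an embryonic lining that makes simple keratins and can be present in feeder preparations, summed (without Krt7 and Krt19) to 1.18 to 4.74 CPM after PlaB and 3.81 to 4.04 CPM in control, and Wt1 was at 0 counts after PlaB.

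The day 1 aggregates are compared here with both 2D groups. Over all 16304 genes tested in a fit of all libraries, the median log2 fold change was 0.14 for day 1 against 2D PlaB and 0.13 for day 5 against 2D control, so the values of those comparisons are read relative to such a shift. On day 1 against PlaB-treated 2D cells, 2 of 4 keratins were higher, against 21.9% of all genes. These were Krt7 (39.6 ± 21 CPM on day 1 and 10.2 ± 1.68 CPM after PlaB, 1.94 ± 0.49, adjusted p = 0.00339) and Krt18 (249 ± 45.2 CPM on day 1 and 97.5 ± 13.1 CPM after PlaB, 1.35 ± 0.34, adjusted p = 0.00268). Krt8 (0.58 ± 0.32, adjusted p = 0.154) and Krt19 (0.10 ± 0.41, adjusted p = 0.867) did not pass. Krt8 did pass with total-count scaling (0.89, adjusted p = 0.0347) and without day 1 replicate 3 (0.82, adjusted p = 0.0458). The sign of both depended on the processing, with -0.12 for Krt8 and -0.59 for Krt19 once the GC trend was removed. On day 1 against 2D control, 4 of 4 were higher (22.7% of all genes), by 2.64 ± 0.36 for Krt8, 2.94 ± 0.52 for Krt7, 2.72 ± 0.36 for Krt18 and 1.90 ± 0.46 for Krt19. With the GC trend removed, the values were smaller, at 1.19 for Krt8 (adjusted p = 0.00346), 2.33 for Krt7 (adjusted p = 0.000608) and 1.41 for Krt18 (adjusted p = 0.00073). That of Krt19 missed the threshold with the GC trend removed (0.44, adjusted p = 0.493) and without control replicate 1 (1.49, adjusted p = 0.0603).

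Day 5 blastoids stood above both. Against 2D PlaB, 4 of 4 keratins were higher (21.2% of all genes), with log2 fold changes of 2.04 ± 0.41 for Krt19 to 3.17 ± 0.37 for Krt18. Against 2D control, 4 of 4 were higher (18% of all genes), with 3.84 ± 0.46 for Krt19 to 4.56 ± 0.39 for Krt8. These comparisons with 2D groups share libraries. Culture form, day, feeder content, count table and any library batch that goes with the table differ at once and cannot be told apart. Against 2D control, PlaB differs as well, since the blastoid labels list it. Feeder markers summed to 246 to 279 CPM on day 5, 596 to 974 CPM on day 1, 5484 to 7182 CPM in 2D PlaB and 2821 to 3456 CPM in 2D control. These sums join genes of unlike course. Fn1 had 174 ± 11.9 CPM on day 1 and 209 ± 41.7 CPM on day 4, whereas Bgn had 108 ± 60.8 CPM and 6.9 ± 5.5 CPM.

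Each gene had the same groups at both ends of its order. From the highest, the mean level followed day 5, day 4 and day 1 for all 4 genes, and day 3 was the lowest for all 4. After day 1 came 2D PlaB, day 2 and 2D control for Krt8, Krt7 and Krt18, and 2D PlaB, 2D control and day 2 for Krt19. Neighbours on this scale often did not differ beyond their spread. Day 5 and day 4 did not pass for any gene, nor did 2D control and day 3 for Krt8 (0.44, adjusted p = 0.422), Krt7 (0.41, adjusted p = 0.664) and Krt18 (0.61, adjusted p = 0.226). 2D PlaB and day 2 were not told apart for Krt7 (adjusted p = 0.998) and Krt18 (0.13, adjusted p = 0.795), but 2D PlaB was higher than day 2 for Krt8 (1.00, adjusted p = 0.016).

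Divided by coding length, the genes kept one order in most groups. Krt18 was the highest at 689 ± 289 CPM per coding kb on day 5, followed by Krt8 at 229 ± 79.5, Krt7 at 61.8 ± 29.8 and Krt19 at 35.8 ± 9.69 CPM per coding kb (SD, n = 3). In 2D PlaB the last 2 changed places, with Krt19 at 8.75 ± 2.24 and Krt7 at 7.47 ± 1.23 CPM per coding kb (n = 2), within their spread. Coding length was used because the annotated transcript of Krt7 runs 2507 bases past its RefSeq end. Per kb of the whole transcript, Krt7 was below Krt19 on days 4 and 5 and in both 2D groups.

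The balance of partners was steadier than the levels. The ratio of type II (Krt7 plus Krt8) to type I (Krt18 plus Krt19) CPM per coding kb had a geometric mean of 0.414, 0.383, 0.493, 0.433 and 0.405 on days 1 to 5, 0.564 in 2D PlaB and 0.431 in 2D control. While Krt8 and Krt18 differed 22.2-fold and 22.7-fold between day 4 and day 3, their ratio was 0.359 on day 4 and 0.365 on day 3. Within groups the log2 ratio of type II to type I ran from -1.72 to -1.04 on day 1, where replicate 3 was lowest, and only from -1.21 to -1.20 on day 4. In 2D PlaB the Krt8 to Krt18 ratio was 0.531, against 0.34 in 2D control, with log2 values of -1.05 to -0.78 and of -1.83 to -1.28. With 2 libraries a group, that difference was given no test.

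Ratios were taken within each type as well. Krt7 stood to Krt8 at 0.433, 0.363, 0.392, 0.279 and 0.262 on days 1 to 5, at 0.183 in 2D PlaB and at 0.37 in 2D control. Krt19 stood to Krt18 at 0.0462, 0.0239, 0.0315, 0.0613 and 0.0537 on days 1 to 5, at 0.112 in 2D PlaB and at 0.0835 in 2D control, and the highest of these values were those of both 2D groups. Of 4 log2 ratios tested for day 5 minus day 1 (two-sided exact permutation test, n = 3 each, smallest possible p = 0.1), that of Krt7 to Krt8 differed by -0.73 (p = 0.2, adjusted p = 0.8). Type II to type I differed by -0.03 (exact p = 1), Krt8 to Krt18 by 0.17 (exact p = 0.5) and Krt19 to Krt18 by 0.22 (exact p = 0.8). Such a design cannot reach 0.05, so these values do not show that the ratios were equal.

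**Figure D3:**
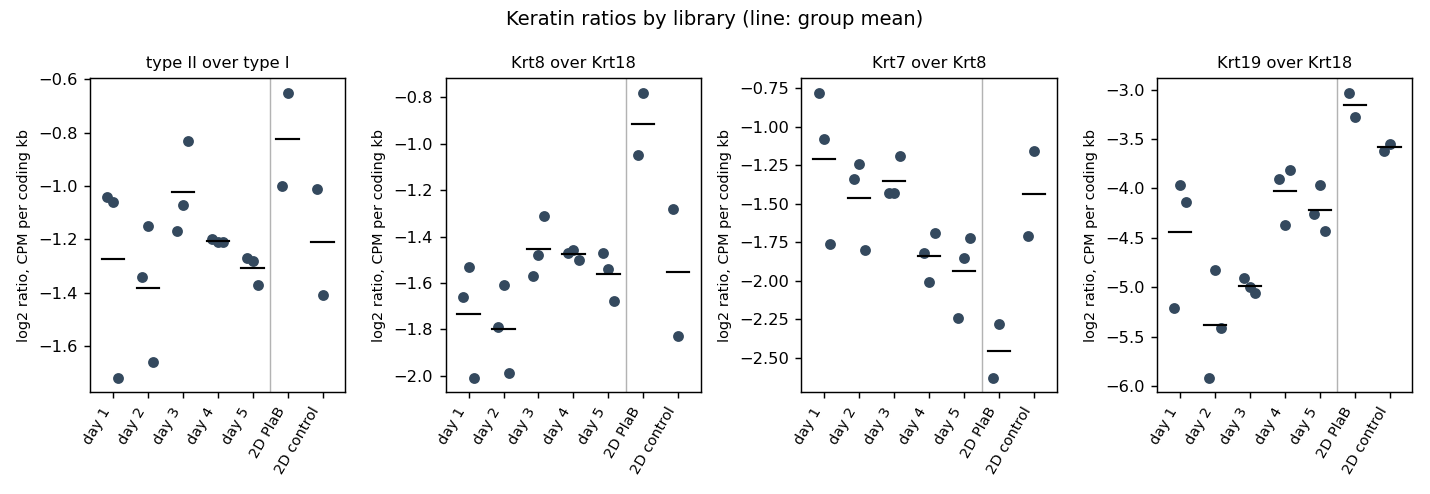
Log2 ratio of CPM per coding kb in each library (points) with group means (lines), for type II over type I, Krt8 over Krt18, Krt7 over Krt8 and Krt19 over Krt18. Each panel has its own scale; type II over type I stays between -1.72 and -0.65 over all libraries.

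These 4 genes made up most keratin reads, least so on day 3. They took 90.5 to 95.7% of all keratin counts on day 1, 72.9 to 85.2% on day 2, 53.8 to 73.1% on day 3, 97.7 to 98.4% on day 4, 98.8 to 99.3% on day 5, 81.3 to 83.7% in 2D PlaB and 70.4 to 79.1% in 2D control. Of 50 other keratin genes in the tables, 7 had 0 counts in every library and 6 passed the filter of at least 1 fit. Krt10, a type I keratin of suprabasal epidermis, ran against the 4, at 13.5 ± 4.25 CPM on day 3 and 7.37 ± 2.16 CPM on day 1 (0.90 ± 0.28, adjusted p = 0.0126), and at 4.95 ± 0.226 CPM on day 5, below day 3 (-1.43 ± 0.30, adjusted p = 0.000865). Krt42, a type I keratin, rose to 16.2 ± 5.68 CPM in 2D PlaB, against 3.3 ± 1.8 CPM in 2D control (2.29 ± 0.46, adjusted p = 8.34e-05), and was lower on day 5 than on day 1 (-3.31 ± 0.59, adjusted p = 0.000124). Krt23, another type I keratin, had 0 counts on day 5 and 53 counts on day 1, at least 15.3-fold lower on day 5 when day 5 is set at 3 counts over its libraries (adjusted p = 0.000523). Krt14, a basal keratin of stratified epithelia whose gene lies within 100 kb of Krt19, had 36 counts on day 4, of which 26 in 1 library, and 0 counts on day 3 (adjusted p = 0.0167), at least 10.2-fold higher on day 4 when day 3 is set at 3 counts. Krt17 and Krt20 stayed at or below 2.59 CPM in every group mean. These bounds cover counting error only.

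Genes beside the Krt8 and Krt18 pair were looked at after the keratin values were seen. Of 8 other symbols within 100 kb, 3 were tested. Eif4b, a translation initiation factor gene, had 215 ± 6.85 CPM on day 4 and 202 ± 16.2 CPM on day 3 (0.08 ± 0.18, adjusted p = 0.775). Tns2 (1.39 ± 0.58, adjusted p = 0.0794) and Spryd3 (1.43 ± 0.55, adjusted p = 0.0579) had higher means on day 4 but did not pass, at 3.14 CPM or less. Within 100 kb of Krt7 no gene passed the filter.

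The keratins also ranked high in each other's lists by pattern over the 15 blastoid libraries. Only for Krt8 were the first 3 places all keratins. Among 8394 genes, Krt8 and Krt18 had a Pearson correlation of log2 CPM of 0.995 with each other and ranked first in each other's list. Krt8 ranked first for Krt7 (0.983) and for Krt19 (0.984) too, whereas Krt7 and Krt19 had 0.958 with each other, where Krt19 ranked 7th for Krt7 and Krt7 ranked 9th for Krt19. Genes outside the family in the first 3 places were Tinagl1, an extracellular matrix protein gene (0.982 with Krt7), Nek6, a mitotic kinase gene (0.979 with Krt7 and 0.981 with Krt18), and Pdlim2, an actin-associated PDZ and LIM domain gene (0.980 with Krt19). Tinagl1 had 12.6, 0.933, 19.3 and 44.9 CPM on days 1, 3, 4 and 5, and Nek6 had 31.9, 12, 38.7 and 48 CPM. These correlations are descriptions: in each library all genes share its day, its depth and its GC index, which differed between libraries.

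Lists of related genes, each without the 4 keratins, show what else moved at the keratin steps. Of 12 tested markers of simple epithelium, 9 were higher and 0 lower on day 4 than on day 3 (median log2 fold change 2.13, against -0.04 over all genes), beside 15.6% higher and 12.3% lower over all genes. On day 3 against day 1, 2 were higher (Cdh1 and Esrp1) and 7 lower (median -1.52, against 0.03 over all genes). Among all 15121 genes, 3545 were higher and 3600 lower there. Cldn4, a tight junction claudin gene, stood at 9.74 ± 2.05 CPM on day 4 and 1.14 ± 0.622 CPM on day 3 (3.00 ± 0.49). Cldn6, a claudin gene of early embryonic epithelium, stood at 62.3 ± 13.7 CPM on day 4 and 16.2 ± 6.17 CPM on day 3 (1.92 ± 0.33). Spint1, a protease inhibitor gene, stood at 72.1 ± 3.88 CPM on day 4 and 16.7 ± 5.97 CPM on day 3 (2.10 ± 0.29). By contrast Cdh1, the gene of E-cadherin, had 226 ± 48.4 CPM on day 4 and 210 ± 135 CPM on day 3 (0.08, adjusted p = 0.859) and Epcam, an epithelial adhesion gene, had 397 ± 7.63 CPM on day 4 and 282 ± 45 CPM on day 3 (0.48, adjusted p = 0.0906).

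By day 5 against day 1, 5 of 12 simple epithelial markers were higher and 2 lower (median 0.51, against -0.02 over all genes), beside 25.5% higher and 25.5% lower over all genes. Cdh1 rose to 431 ± 66.1 CPM on day 5, against 71.7 ± 11.8 CPM on day 1 (2.65 ± 0.33). Cldn4 fell to 6.52 ± 2.65 CPM on day 5, against 21.6 ± 11.3 CPM on day 1 (-1.65 ± 0.41, adjusted p = 0.00213). After PlaB in 2D, 6 of 9 tested markers were higher and 2 lower (median 1.51, against 0.00 over all genes), beside 25.9% and 25.8% of all genes. Those higher included Spint2 (125 ± 18.1 CPM after PlaB and 38.6 ± 2.11 CPM in control, 1.69 ± 0.18) and Cldn4 (9.75 ± 2.65 CPM after PlaB and 0.643 ± 0.528 CPM in control, 3.82 ± 0.71).

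Proteins that anchor or bind keratin filaments were mixed. Of 17 tested genes of desmosomal linkers and keratin partners, 9 were higher and 0 lower on day 4 than on day 3 (median 1.06). Of all genes, 15.6% were higher and 12.3% lower there. On day 5 against day 1, 7 of the 17 were higher and 3 lower (median 0.21), beside 25.5% higher and 25.5% lower over all genes. Dsp, the gene of desmoplakin, which ties keratin filaments to desmosomes, rose to 104 ± 23.9 CPM on day 5, against 18.5 ± 3.65 CPM on day 1 (2.55 ± 0.30). Pkp2, a plakophilin gene of the desmosomal plaque, rose to 169 ± 48.6 CPM, against 15.7 ± 2.89 CPM on day 1 (3.49 ± 0.27), and Ppl, the periplakin gene, to 17 ± 5.59 CPM, against 1.18 ± 0.0787 CPM (3.89 ± 0.35). Sfn, the 14-3-3 sigma gene, fell to 5.48 ± 2.52 CPM on day 5, against 61.6 ± 16.4 CPM on day 1 (-3.41 ± 0.34). After PlaB, 4 of 15 partners were higher and 4 lower, shares near the 25.9% and 25.8% of all genes, with Sfn at 21.7 ± 3.99 CPM after PlaB and 1.2 ± 0.972 CPM in control (4.16 ± 0.50) and Dsg2, a desmosomal cadherin gene, at 7.87 ± 1.66 CPM after PlaB and 36.6 ± 11.1 CPM in control (-2.23 ± 0.32).

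Factors known to act on these keratin genes or in the trophectoderm did not all follow them. Of 22 tested regulators, 7 were higher and 0 lower on day 4 than on day 3 (median 0.36), beside 15.6% and 12.3% of all genes. On day 5 against day 1, 13 were higher and 2 lower (median 0.99), beside 25.5% higher and 25.5% lower over all genes. Gata2 rose to 21.5 ± 3.73 CPM on day 4, against 2.29 ± 0.343 CPM on day 3 (3.22 ± 0.29), whereas Gata3 had 9.95 ± 1.74 CPM on day 4 and 7.28 ± 1.08 CPM on day 3 (0.44, adjusted p = 0.307). Klf4 and Klf5, zinc finger factors of epithelium and stem cells, had log2 fold changes of -0.60 and -0.70 on day 4 against day 3 and did not pass (adjusted p = 0.135 and 0.0801). After PlaB, 4 of 18 regulators were higher and 6 lower (median -0.56), beside 25.9% higher and 25.8% lower over all genes. Among them Fosl2, an AP-1 subunit gene, rose to 120 ± 19.2 CPM after PlaB, against 27.5 ± 8.31 CPM in control (2.13 ± 0.20), and Klf5 fell to 45.3 ± 4.99 CPM, against 147 ± 17.5 CPM in control (-1.70 ± 0.17).

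Trophectoderm markers other than the keratins had 7 of 12 higher and 0 lower on day 4 than on day 3 (median 1.28). They had 5 of 12 higher and 0 lower on day 5 than on day 1 (median 0.71). The shares of all genes were 15.6% higher and 12.3% lower at the day 4 step, and 25.5% each for day 5 against day 1. Plac1, a placental gene, stood at 79.4 ± 15.1 CPM on day 4 and 2.67 ± 0.464 CPM on day 3 (4.88 ± 0.40). Lgals3, the galectin 3 gene, had its lowest level on day 3 as well, at 261 ± 96.5, 61.6 ± 5.36, 12.4 ± 3.51, 168 ± 13.7 and 179 ± 33.6 CPM on days 1 to 5. Its day 5 mean, unlike those of the keratins, was below its day 1 mean, and the difference did not pass (-0.48 ± 0.24, adjusted p = 0.1). After PlaB in 2D, 1 of 8 tested trophectoderm markers was higher, Lgals3 (165 ± 0.0795 CPM after PlaB and 42.2 ± 6.88 CPM in control, 1.96 ± 0.17), and 4 were lower, among them Esrrb (-1.64 ± 0.26), Tfap2c (-1.91 ± 0.39) and Hand1 (-2.44 ± 0.90). Of all genes tested in 2D, 25.9% were higher and 25.8% lower after PlaB. Cdx2 and Tfap2a were at 0 counts in PlaB-treated cells. The lists overlap, so their counts are not separate results. Esrrb is also on the naive pluripotency list, and Tfap2c, Gata2 and Gata3 are also among the regulators. Klf4 and Klf5 are on both the regulator and the naive pluripotency lists.

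Markers of other cell types were read at the same steps. Of all genes, 15.6% were higher and 12.3% lower on day 4 than on day 3. On day 4 against day 3, 14 of 20 feeder markers were lower and 0 higher (median -2.07), with a summed level of 223 to 380 CPM on day 4 and 460 to 1060 CPM on day 3. Within these sums Fn1 alone had 209 ± 41.7 CPM on day 4 and 346 ± 159 CPM on day 3. The part of feeder markers in the keratin rise was not tested. Markers of primitive and visceral endoderm, whose epithelium also makes Krt8 and Krt18, had 2 of 12 higher and 0 lower at that step (median 0.12). The share higher was near that of all genes. The summed level of these endoderm markers was 400 to 468 CPM on day 4 and 247 to 428 CPM on day 3. Naive pluripotency markers had 1 of 12 higher and 3 lower (median -0.58), markers of stratified epithelium 1 of 3 higher (Krt14, above) and 0 lower, and mesothelium markers 0 of 2 higher and 1 lower (Wt1). The summed level of mesothelium markers stayed between 1.18 and 12.6 CPM in all groups.

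**Figure D4:**
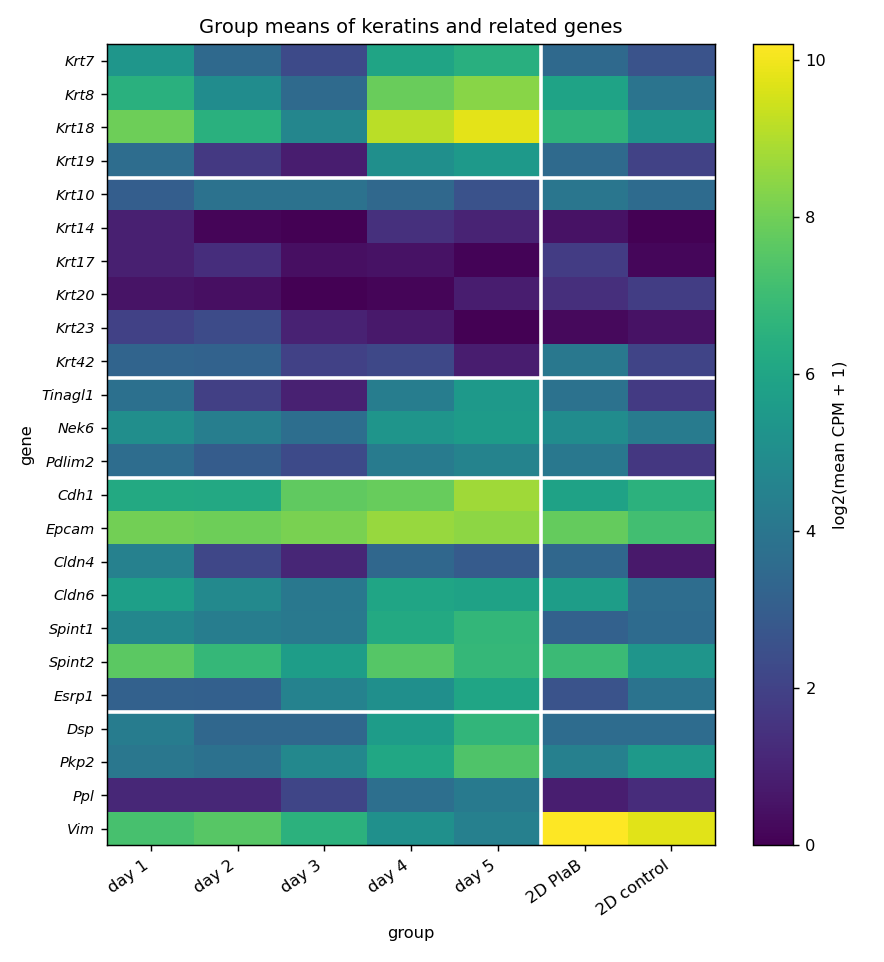
Group means on a log2(CPM + 1) scale (colour) for the 4 keratins, the 6 other keratins that passed a filter, the 3 genes most like them in pattern, 7 simple epithelial markers, and desmosomal genes with Vim, in blastoid days 1 to 5, 2D PlaB and 2D control. The top rows are dimmest on day 3 and brightest on days 4 and 5. None of the 7 simple epithelial markers is dimmest on day 3 over all groups. Among the blastoid days alone, Cldn4, Cldn6, Spint1 and Spint2 are lowest on day 3, and Cdh1, Epcam and Esrp1 are not.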

How the data were processed

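The authors deposited unnormalized read counts for each gene symbol, as 1 table for 2D culture and 1 for blastoids. Per the labels' protocols, polyadenylated RNA was made into libraries with Smart-seq2, which amplifies cDNA by PCR without molecular identifiers. Per the submitters' processing notes, STAR 2.7.10b, HTSeq 0.13.5 and the build mm10 were used. Which annotation and strand setting HTSeq used is not given in the sources used here, which leaves counts of overlapping and antisense genes uncertain. Of 54352 symbols, 53669 matched exactly 1 gene of GENCODE M21.

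Genes were kept by filterByExpr (minimum count 10, minimum total 15) and tested with edgeR 4.0.16 (TMM scaling, robust quasi-likelihood fit, Benjamini-Hochberg adjustment over all tested genes, threshold 0.05) in R 4.3.3. One fit held the 4 libraries of 2D culture, one the 15 blastoid libraries, and one all 19 for comparisons across cultures. Adjusted p-values of genes are from edgeR. Printed CPM are scaled in the fit of all libraries. Log2 CPM for correlations had a prior count of 2, and genes were ranked if they averaged 10 CPM or more on some day. The GC trend of each library was removed as a lowess offset (span 0.3). Ratios used CPM per kb of coding sequence, with exact permutation tests from SciPy 1.17.1 in Python 3.11.15. The fits were first tested on simulated data, in which 100 genes changed by each size and all genes shared the same dispersion. The least abundant genes were left unchanged. Set changes of 1 on the log2 scale were called in the right direction for 77% of genes in PlaB against control. The share was 24% for day 4 against day 3 and 17% for day 5 against 2D control. For changes of 2, these shares were 97%, 98% and 81%. Far more genes were called in the data than were changed in the simulation, so these shares need not hold for the data. A gene that did not pass may still have changed.

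The 4 genes and the gene lists were chosen with earlier results of these data known. Besides the 4, the naming rule took every other keratin gene that passed a filter, up to 4 called genes with the smallest adjusted p from each list (PlaB against control, and day 5 against day 1), and for each keratin the 3 genes with the highest correlation. Other genes were chosen after their values were seen. A gene that the rule names is not reported here. Alternatives were DESeq2 1.42.0, RLE factors, total-count scaling, no filter, a replicate block, GC trend removal, limma-voom (limma 3.58.1), only the groups compared, and leaving out each library.

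Libraries with the same replicate number did not deviate together. Their correlations ran from -0.262 to 0.179 in 30 blastoid pairs and stood at -0.0179 in 2D, so the numbers were not taken as pairs. All 17 replicate pairs differed by more than counting noise, at 4.24 to 90.5 chi-square units per degree of freedom.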

Additional observations from a re-analysis of the deposited data

How the results depend on the processing

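Over 1211 repeats of the keratin fold changes under the alternatives, 1177 kept their direction and their side of the threshold, 21 lost the call, 6 gained it and 7 changed sign. Day 4 against day 3 and day 3 against day 1 kept the result in 92 of 92 repeats each. For PlaB against control, limma-voom gave Krt7 1.06 (adjusted p = 0.0434), and removal of the GC trend gave Krt18 0.42 (adjusted p = 0.0869) and Krt19 0.70 (adjusted p = 0.271). Leaving out 1 library gave 1.35 to 2.31 for Krt19 and 0.58 to 1.47 for Krt7 there. Krt7 on day 5 against day 1 had 0.82 (adjusted p = 0.0874) with total-count scaling, which moved the median of all genes to -0.35, and 0.71 to 1.42 without 1 library. In day 1 against 2D PlaB, Krt8 changed sign to -0.12 with the GC trend removed and gained the call with total-count scaling (0.89) and without day 1 replicate 3 (0.82). Krt19 did so with the replicate block (-0.03), the GC trend removed (-0.59), limma-voom (-0.02), only the groups compared (-0.04), without PlaB replicate 2 (-0.11) and without day 1 replicate 2 (-0.26). The replicate block changed no other sign or call of a keratin. On day 3 against day 2, Krt7 and Krt19 lost the call with the GC trend removed (-1.06 and -1.04) and with limma-voom (-1.33 and -1.31). The causes were not tested. Without division by length, the day 5 log2 ratio of type II to type I was -1.11, and per kb of whole transcript, an alternative chosen after seeing the data, it was -1.71 (main value -1.30), and Krt7 to Krt8 was -3.10 (main value -1.93). Calls over all genes, used only as background, differed by more than 1.5 times on day 2 against day 1 (797 lower; 1375 with total-count scaling, 393 with the GC trend removed, 1305 with only the groups compared), day 3 against day 2 (2045 lower; 1294 with only the groups compared), day 4 against day 3 (2361 higher; 1420 with the GC trend removed), day 5 against day 4 (2133 higher; 1359 with total-count scaling) and day 5 against day 3 (2908 higher; 1773 with only the groups compared). So did the calls lower on day 4 against day 3 (1863, against 1074 with only the groups compared). Total-count scaling called 2880 genes higher and 1293 lower on day 4 against day 3 (2361 and 1863 with TMM), 2621 and 5150 on day 5 against day 1 (3863 and 3854) and 2419 and 4555 on day 3 against day 1 (3545 and 3600). Depth limits Krt19 most, with 13 counts over the day 3 libraries.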

Other observations

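Of 13 tested genes of other intermediate filaments, 0 were higher and 3 lower on day 5 than on day 1 (median log2 fold change -0.45, against -0.02 over all genes), and 2 were higher and 3 lower on day 4 than on day 3. Over all genes, 25.5% were higher and 25.5% lower on day 5 than on day 1. The shares were 15.6% higher and 12.3% lower on day 4 against day 3. The 2 that were higher on day 4 than on day 3, Lmna, the gene of the nuclear lamins A and C (1.56 ± 0.33, adjusted p = 0.00187), and Prph, the gene of the neuronal filament protein peripherin (2.18 ± 0.62, adjusted p = 0.0131), had also been lower on day 3 than on day 1 (-2.51 ± 0.33 and -2.73 ± 0.61), as the keratins were. Lmna averaged 37.7, 17.4, 6.29, 19.1 and 31 CPM on days 1 to 5. Vim, the gene of vimentin, the filament of mesenchymal cells, fell to 20.9 ± 1.05 CPM on day 5, against 149 ± 53.6 CPM on day 1 (-2.77 ± 0.32, adjusted p = 9.13e-07), and was lower on day 4 than on day 3 (-1.47 ± 0.30). Nefh, a neurofilament gene, fell to 1.83 ± 0.554 CPM on day 5, against 15.6 ± 4.74 CPM on day 1 (-3.05 ± 0.43), and Des, the muscle filament gene desmin, to 2.28 ± 1.32 CPM, against 11.3 ± 1.16 CPM (-2.23 ± 0.46). Feeder markers had 17 of 20 lower and 0 higher on day 5 than on day 1 (median -2.88), led by Bgn at 1.56 ± 0.283 CPM on day 5 and 108 ± 60.8 CPM on day 1 (-6.02 ± 0.55). Fibroblasts make vimentin, and the part of feeder RNA in these values was not tested.

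After PlaB in 2D, 4 of 9 tested genes of other filaments were higher and 0 lower, beside 25.9% and 25.8% of all genes. Lmnb1, a nuclear lamin gene, rose to 32.3 ± 5.52 CPM after PlaB, against 10.5 ± 2.27 CPM in control (1.62 ± 0.30), Lmna, the lamin A gene, to 40.1 ± 0.668 CPM, against 18.8 ± 0.351 CPM (1.09 ± 0.25), Des to 9.77 ± 3.46 CPM, against 1.43 ± 0.127 CPM (2.73 ± 0.60), and Vim to 1181 ± 116 CPM, against 863 ± 94.8 CPM (0.45 ± 0.12). Vim is made by the feeder fibroblasts, of whose markers 15 of 20 tested were higher and 1 lower after PlaB. The part of feeder RNA in these values was not tested.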
